A study of Mus musculus with 7 samples.

Results

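Of 26649 regions that carried Fos peaks in the mouse hippocampus after kainic acid, 2080 had their summit no more than 1 kb from either end of a gene that codes for protein, and these gene-end regions are described here. Overlapping peaks of 3 kainic acid libraries were merged into regions, and a region on chromosomes 1 to 19 was kept where at least 2 of the 3 lists had a peak in it. The summit of a region was the median of its peak summits, and the gene ends were those of GRCm38 RefSeq gene spans. Gene-end regions made up 7.81% of the regions (95% Clopper-Pearson interval 7.49% to 8.13%). The remaining 24569 regions fell into 15748 inside a gene, more than 1 kb from its ends, and 8821 outside genes. Because the members were picked from the kainic acid peaks themselves, their presence after kainic acid is a description and not a result.

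DNA bound by Fos was enriched with an antibody and sequenced (ChIP-seq) from hippocampus of WT C57BL/6J mice aged 2 months, with 3 libraries after saline and 3 after kainic acid. Saline was PBS. Kainic acid, a glutamate receptor agonist that provokes seizures, was given into the peritoneum at 10 mg/kg in 2 injections 30 min apart, and hippocampi of mice that reached level 4 seizures were taken 1 hour after the first injection. All 6 libraries came from whole hippocampal tissue and a monoclonal Fos antibody, so the cell types that carried a peak, and more cells with a bound site or more binding per cell, cannot be told apart. The number of animals per library is not given, nor whether libraries came from separate animals, so p-values measure only the spread between libraries. A single input library, chromatin without the antibody, was not used here.

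Fos is an immediate early gene product: neurons make it within minutes to hours of strong activity. It pairs with Jun proteins to form the transcription factor AP-1, which recognises a short palindrome-like DNA element. In neurons many AP-1 sites lie in enhancers, away from gene starts, while the start of a gene holds its promoter, where RNA polymerase is loaded and chromatin is open in many cell types.

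The lists differed in length, and saline replicate 2 stood apart from the other saline libraries. Kainic acid replicates 1, 2 and 3 held 14890, 62620 and 29425 peaks on chromosomes 1 to 19, saline replicate 1 held 4, saline replicate 2 held 3258, and saline replicate 3 held none. Leaving out kainic acid replicate 2 or 3 left 797 or 869 gene-end regions. No read totals come with the lists. The reads over each summit (pileup) and the expected reads there (local background) were solved from the authors' fold and −log10 p, and no kainic acid peak rested on fewer than 12, 9 and 13 reads in replicates 1, 2 and 3. Fold, the authors' ratio of pileup to local background, is scaled within a library, so values of each list stand side by side with no mean across lists. Over all protein-coding genes 10.4% had a gene-end region. Among lists used to check the tissue, 7 of 25 neuronal genes and 0 of 19 liver genes had one, and with so few liver genes a count of 0 is close to that share.

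Promoter sequences show what lay under some of the summits. They come from the RefSeq promoter table of GRCm38.p6, which gives 250 bases before a gene's start and 50 after it, in the direction of the gene. The first 4 belong to gene-end regions called in all 3 kainic acid lists and in no saline list. They were also picked for holding the AP-1 heptamer, TGAGTCA or its reverse complement TGACTCA, which their capitals mark. Better-ranked regions of this kind without the heptamer, such as those at Rin1 and Dhx16, were passed over. Of the best-ranked 10 regions with their summit in a window, 5 held it. Il15ra, which encodes the alpha subunit of the interleukin 15 receptor, is at chr2:11705462-11705761 on the plus strand. Its heptamer lies 15 bp from the summit. Myl12a, a myosin regulatory light chain, is at chr17:71002484-71002783 on the minus strand, and its heptamer is 55 bp from the summit. Scyl3, a pseudokinase gene, is at chr1:163928850-163929149 on the plus strand with the heptamer 38 bp from the summit. Med28, a Mediator subunit, is at chr5:45519979-45520278 on the plus strand with the heptamer 19 bp from the summit. The Trim9 promoter, at chr12:70347565-70347864 on the minus strand, is shown because its region also had a saline replicate 2 peak. It holds no AP-1 heptamer, and the summit lay 13 bp before the start given in the promoter table. That start differs from the 5′ end of the gene span, which placed the summit 242 bp inside the gene. The Snap47 promoter, at chr11:59449985-59450284 on the minus strand, is shown as a gene-end peak of saline replicate 2 that overlapped no kainic acid peak; its capitals mark a GC box, 122.5 bp from the saline summit.
Il15ra: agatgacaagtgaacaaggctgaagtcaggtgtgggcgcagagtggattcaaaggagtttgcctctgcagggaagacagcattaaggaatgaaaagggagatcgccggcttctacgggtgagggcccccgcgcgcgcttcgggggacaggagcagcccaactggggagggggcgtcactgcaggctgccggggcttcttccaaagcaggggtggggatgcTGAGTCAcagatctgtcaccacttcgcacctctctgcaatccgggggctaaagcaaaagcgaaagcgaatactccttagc
Myl12a: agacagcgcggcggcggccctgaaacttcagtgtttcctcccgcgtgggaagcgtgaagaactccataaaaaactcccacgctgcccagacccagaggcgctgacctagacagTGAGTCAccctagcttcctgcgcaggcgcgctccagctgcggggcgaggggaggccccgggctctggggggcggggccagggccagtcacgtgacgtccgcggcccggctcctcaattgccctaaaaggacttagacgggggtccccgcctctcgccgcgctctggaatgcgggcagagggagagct
Scyl3: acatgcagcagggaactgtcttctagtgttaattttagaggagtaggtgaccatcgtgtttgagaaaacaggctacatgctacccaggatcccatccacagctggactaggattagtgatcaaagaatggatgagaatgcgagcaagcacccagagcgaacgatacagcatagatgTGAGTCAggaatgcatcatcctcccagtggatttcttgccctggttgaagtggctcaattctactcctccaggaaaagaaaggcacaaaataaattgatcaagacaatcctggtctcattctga
Med28: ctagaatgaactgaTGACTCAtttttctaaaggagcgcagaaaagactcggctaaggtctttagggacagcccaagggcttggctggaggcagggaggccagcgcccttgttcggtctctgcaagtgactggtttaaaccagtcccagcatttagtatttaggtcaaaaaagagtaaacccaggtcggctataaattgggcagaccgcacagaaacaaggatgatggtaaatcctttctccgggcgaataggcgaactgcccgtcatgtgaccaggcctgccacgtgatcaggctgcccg
Trim9: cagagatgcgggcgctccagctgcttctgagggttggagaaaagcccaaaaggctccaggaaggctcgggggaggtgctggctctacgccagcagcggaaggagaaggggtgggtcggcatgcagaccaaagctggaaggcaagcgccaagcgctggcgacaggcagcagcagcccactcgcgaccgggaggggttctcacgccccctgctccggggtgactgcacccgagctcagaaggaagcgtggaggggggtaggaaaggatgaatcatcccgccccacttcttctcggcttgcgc
Snap47: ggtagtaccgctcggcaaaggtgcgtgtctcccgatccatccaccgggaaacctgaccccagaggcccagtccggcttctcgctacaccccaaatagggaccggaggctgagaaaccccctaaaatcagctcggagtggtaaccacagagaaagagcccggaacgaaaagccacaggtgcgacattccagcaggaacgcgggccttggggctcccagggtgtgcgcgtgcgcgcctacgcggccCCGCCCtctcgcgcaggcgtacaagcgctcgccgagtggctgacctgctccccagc

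The regions of the 4 promoters with the heptamer were picked from those called in every kainic acid list and in no saline list. Folds at Il15ra were 6.32, 13.4 and 10.0 in replicates 1, 2 and 3. The Myl12a region had 7.21, 13.0 and 6.58. The folds of the Scyl3 region were 6.00, 10.8 and 6.59, and those of the Med28 region were 5.30, 14.4 and 6.18. In each of these 4 regions replicate 2 gave the highest value. Its median fold was also the highest over the regions away from gene ends (4.50, 5.93 and 4.18 in replicates 1, 2 and 3). Trim9, a ubiquitin ligase found mainly in brain, had folds of 7.69, 19.1 and 10.3 and a fold of 4.80 in saline replicate 2. The saline peak at Snap47, which encodes a SNARE protein, had a fold of 7.08.

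AP-1 heptamers were found in many of the promoter windows that hold a kainic acid gene-end summit. The 186 gene-end regions whose summit fell inside a promoter window touched 201 windows, and 82 of these (40.8%, interval 33.9% to 48.1%) held an AP-1 heptamer on either strand, against 4.7% of all 20084 promoters of the same length. Of the 69 windows whose region was in all 3 kainic acid lists, 42 (60.9%) held it, and of the 132 windows whose region was in 2 lists, 40 (30.3%) did. Of the 712 windows with a gene-end summit of saline replicate 2, 29 (4.07%) held it: 26 of the 199 whose saline peak overlapped a peak of any kainic acid list (13.1%) and 3 of the 513 whose saline peak did not (0.585%). The last set was picked for lacking kainic acid peaks, so its share is a description of that choice. The gene-end windows with a saline replicate 2 peak in the region held it in 16 of 45 cases (35.6%), and those without in 66 of 156 (42.3%). In the windows with the heptamer, its nearest copy lay a median of 37.75 bp from the summit and within 50 bp in 48 of 82, so 48 of all 201 windows had a heptamer that near.

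The other elements searched, each on both strands, were the CRE TGACGTCA, the CCAAT box, the GC box GGGCGG, the ETS core CCGGAA, the E-box CACGTG and the palindromic NRF1 element, and no string searched contains another. The GC box, a site class of Sp factors, was in 118 of the 201 gene-end windows (58.7%) against 47% of all promoters, in 644 of the 712 saline windows (90.4%) and in 460 of the 513 with no kainic acid peak, called saline-only here (89.7%). The CCAAT box was in 28.9% of gene-end windows against 38.1% of all promoters and 43.5% of saline-only windows. The CRE, which binds CREB and ATF proteins, was in 4.48% against 2.3%, and in 0 of the 69 windows of regions in all 3 lists. The ETS core was in 23.9% of gene-end windows against 19.1%, the E-box in 9.95% against 7.89%, and the NRF1 element in 1 window against 1.34% of all promoters. Median GC content was 60.7% in gene-end windows, 57% in all promoters and 68.3% in saline-only windows, and its part in the motif shares was not tested. These matches are descriptions of letters in a window. The windows cover only starts in the table, so most gene-end regions have no window under their summit.

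**Figure D1:**
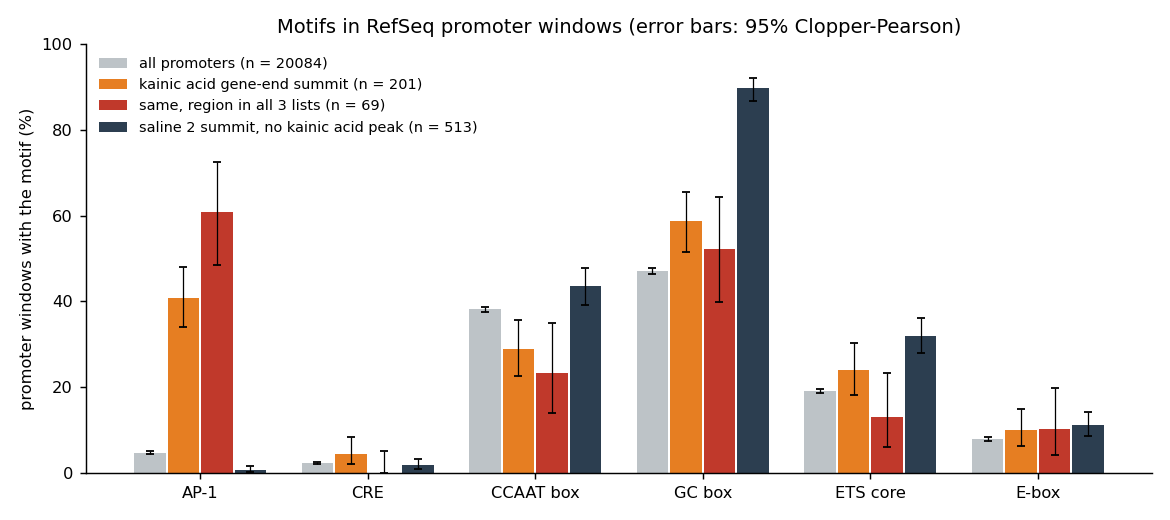
Share (%) of RefSeq promoter windows that hold each motif, for all promoters, windows with a kainic acid gene-end summit, those whose region was in all 3 lists, and windows with a saline replicate 2 summit that overlapped no kainic acid peak; error bars are 95% Clopper-Pearson intervals. AP-1 stands at 40.8% and 60.9% in the kainic acid windows and at 0.585% in the saline-only windows, where the GC box stands at 89.7%.

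Most gene-end regions sat at the start of a gene. Where strand was known, 1329 regions (63.9% of all members) lay within 1 kb of a 5′ end and 371 (17.8%) only of a 3′ end, and for the other 380 (18.3%) the table gave no strand. A total of 52 regions had both kinds of end in reach. At 5′ ends, 585 summits (44.0%) lay upstream and 744 (56.0%) at or downstream of the end, with a median distance of 468.5 bp. They spread over the whole reach: the 100 bp just upstream held 32 summits without and 13 with a saline replicate 2 peak, the 100 bp just downstream 45 and 11, the bin from 500 to 400 bp upstream 84 and 3, and the bin from 1000 to 900 bp upstream 28 and 1. At 3′ ends, 186 summits were on the gene side and 185 beyond the end, and the median distance was 460.5 bp. Whether a summit lay in an exon, an intron or an untranslated region was not determined, since the gene table holds no exons.

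**Figure D2:**
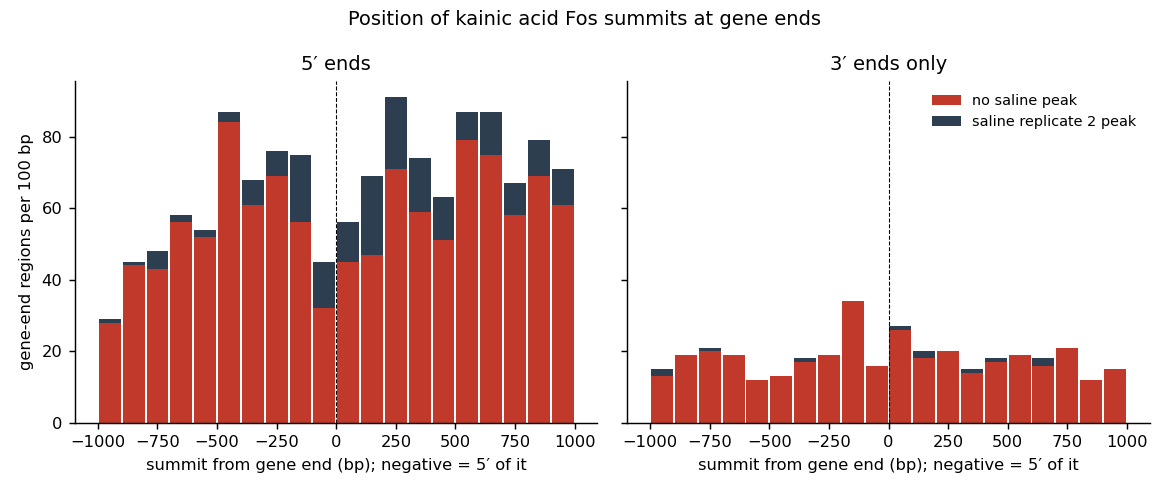
Number of gene-end regions per 100 bp by the distance of the summit from the nearest 5′ end (left) or, for regions at 3′ ends only, the 3′ end (right), in bp, stacked by whether saline replicate 2 had a peak in the region. The 1329 summits at 5′ ends spread over the whole kilobase on both sides, and the 371 at 3′ ends show few saline peaks (11).

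The gene ends reached 2149 of 20661 protein-coding genes on these chromosomes, 10.4%. Single genes accounted for 1860 regions, 216 regions lay at ends of 2 genes and 4 at ends of 3 or more, and 100 lay at 5′ ends of 2 or more genes. Genes with a gene-end region had a median span of 23.6 kb, against 17.5 kb over all protein-coding genes. The merged regions had a median length of 706 bp at gene ends and 684 bp elsewhere.

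The share of gene-end regions called in all 3 lists was below that of the rest, though list membership was part of how they were chosen. Peaks of kainic acid replicates 1, 2 and 3 were in 879 (42.3%), 2072 (99.6%) and 2007 (96.5%) of the members. All 3 lists had a peak in 798 (38.4%, interval 36.3% to 40.5%), against 11055 of the other regions (45.0%) and 44.5% of all regions. Of the rest, 1201 had peaks in replicates 2 and 3 only, 73 in 1 and 2, and 8 in 1 and 3. Ranks of fold over the members correlated between lists with Spearman's rho of 0.499 (replicates 1 and 2, 871 regions), 0.512 (1 and 3, 806 regions) and 0.636 (2 and 3, 1999 regions). The rho values over the other regions were 0.558, 0.576 and 0.614. These are descriptions across regions, which share their library and its depth.

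Fold was slightly lower at gene ends, while both the reads and the local background beneath them were higher. Gene-end regions had median folds of 4.17, 5.85 and 3.92 in replicates 1, 2 and 3, and the other regions had 4.50, 5.93 and 4.18. The difference of medians was −0.11, −0.02 and −0.09 on the log2 scale, with a mean of −0.07 ± 0.05 (SD, n = 3), lower in 3 of 3 lists. The two-sided exact sign-flip permutation test over the lists gave p = 0.25, the smallest that 3 lists allow. Against regions inside genes the mean was −0.06, with 1 list higher, and the exact p was 0.5.

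Pileup and background differed in the other direction. Median pileup at gene ends was 25, 32 and 29 reads against 22, 26 and 25 reads elsewhere, a mean log2 difference of 0.23 ± 0.06 (SD, n = 3). Median local background was 5.23, 4.47 and 6.64 reads against 3.82, 3.32 and 4.82 reads, a mean log2 difference of 0.45 ± 0.02 (SD, n = 3), or 1.36 times. Both were higher at gene ends in 3 of 3 lists (exact sign-flip permutation p = 0.25 each, the smallest possible), and both differences exceeded their spread over lists. The median −log10 q, which grows with the reads as well as with the fold, was 6.77, 14.2 and 7.35 at gene ends and 6.44, 11.7 and 7.22 elsewhere, so by this measure the gene-end regions were higher.

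The higher background belonged to 5′ ends. Background medians there were 5.43, 4.98 and 7.18 reads, and at 3′ ends they were 3.76, 3.32 and 4.75 reads, near the 3.82, 3.32 and 4.82 reads of the other regions. Fold medians were 4.08, 5.85 and 3.88 at 5′ ends and 4.55, 5.82 and 4.18 at 3′ ends. This split by end was chosen after the values were seen and has no test.

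Peak width did not differ in a fixed direction. Median widths of the strongest peak were 358, 631 and 486 bp at gene ends and 379, 577 and 516 bp elsewhere, so gene-end peaks were narrower in replicates 1 and 3 and wider in replicate 2. The mean difference was 1.0 ± 46.1 bp (SD, n = 3; exact sign-flip permutation p = 1). Without replicate 2 it was −25.5 bp.

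**Figure D3:**
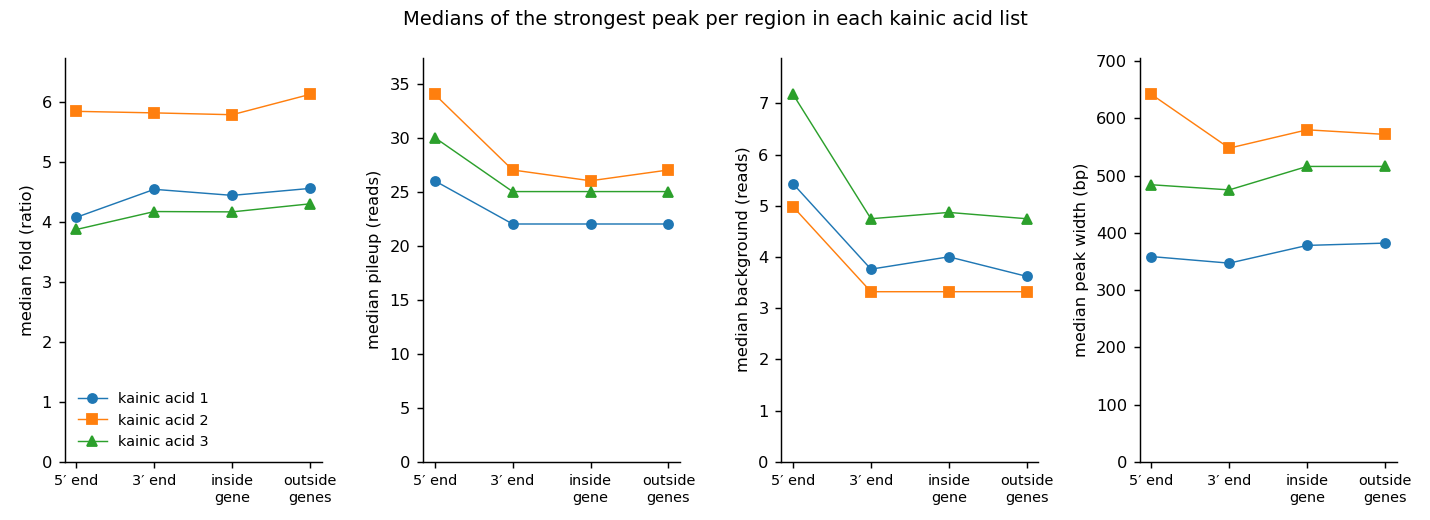
Medians over regions of the authors' fold (ratio), pileup (reads), local background (reads) and peak width (bp) of the strongest peak, for 5′ ends, 3′ ends, regions inside genes and regions outside genes, with 1 marker per kainic acid library joined by lines only to guide the eye. Background stands at 5.43, 4.98 and 7.18 reads at 5′ ends and at 3.76, 3.32 and 4.75 reads at 3′ ends.

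Some members reached the highest folds of a list, but in smaller shares than all regions. Of the members with a peak in it, 23 of 879 (2.62%) in replicate 1, 81 of 2072 (3.91%) in replicate 2 and 67 of 2007 (3.34%) in replicate 3 were among the highest 5% of all regions. For the highest 10% the shares of members were 4.89%, 9.12% (interval 7.92% to 10.4%) and 7.03%, so in replicate 2 the interval held the share of all regions. In the highest 1% there were 2, 9 and 10 members (0.228%, 0.434% and 0.498%). Apart from the highest 10% in replicate 2, each interval lay wholly below the share of all regions. The highest fold at a gene end was 13.2, 27.3 and 15.3. These shares describe single lists and have no test.

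More gene-end peaks were called after kainic acid than after saline in most libraries, but the groups overlapped. Kainic acid replicates 1, 2 and 3 had 931, 6519 and 2259 single peaks at gene ends, counted before any merging. Saline replicates 1, 2 and 3 had 0, 1926 and 0. Saline replicate 2 thus exceeded kainic acid replicate 1. The mean was 3236 ± 2919 peaks with kainic acid and 642 ± 1112 peaks with saline (SD, n = 3 each). On the scale of log10(number + 1) the means were 3.38 ± 0.423 and 1.09 ± 1.90 (SD, n = 3 each), a difference of 2.28. An exact two-sided permutation over libraries gave p = 0.2, where 3 libraries against 3 cannot go below 0.1. Without saline replicate 2 the difference was 3.38.

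As a share of each list, gene-end peaks were 6.25%, 10.4% and 7.68% of the kainic acid peaks, a mean of 8.11% ± 2.11 (SD, n = 3). In saline replicate 2 they were 59.1% (interval 57.4% to 60.8%), a single library with no replicate of its kind, since saline replicate 1 had 4 peaks and saline replicate 3 none.

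Gene-end regions coincided with saline peaks far more often than the rest, and all of this came from saline replicate 2. That list had a peak in 240 of the 2080 members (11.5%, interval 10.2% to 13.0%) and in 297 of the 24569 other regions (1.21%, interval 1.08% to 1.35%), against 2.02% of all regions. The ratio of the shares was 9.55, and 44.7% of the 537 regions with a saline replicate 2 peak were gene-end regions. Of all peaks in that saline list, 59.1% lay at gene ends. Saline replicates 1 and 3 had peaks in 0 of the 2080 members, but with 4 and 0 peaks on these chromosomes their lists were too short to show an overlap. Without saline replicate 2, a saline peak lay in 4 of the other regions (0.0163%) and in no gene-end region. Clopper-Pearson intervals cover counting error only, and regions of a single library are not replicates, so no test was made.

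The saline replicate 2 peaks in these regions lay mainly at 5′ ends. The count was 189 of 1329 regions at 5′ ends (14.2%, interval 12.4% to 16.2%), 11 of 371 at 3′ ends only (2.96%, interval 1.49% to 5.24%), 1.31% inside genes and 1.03% outside. By distance from the nearest gene end it was 15.6% within 100 bp, 15.3% from 100 to 250 bp, 12.7% from 250 to 500 bp and 8.51% from 500 to 1000 bp. Outside the limit of 1 kb it went on at 4.24% up to 2.5 kb, 1.88% up to 10 kb and 0.793% beyond. The saline peaks concerned were weak: with a −log10 q of at least 5 for every peak, 74 of 1467 gene-end regions (5.04%) and 0.445% of the others held one, and with at least 10 it was 2 of 684 (0.292%) and 0.0819%.

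**Figure D4:**
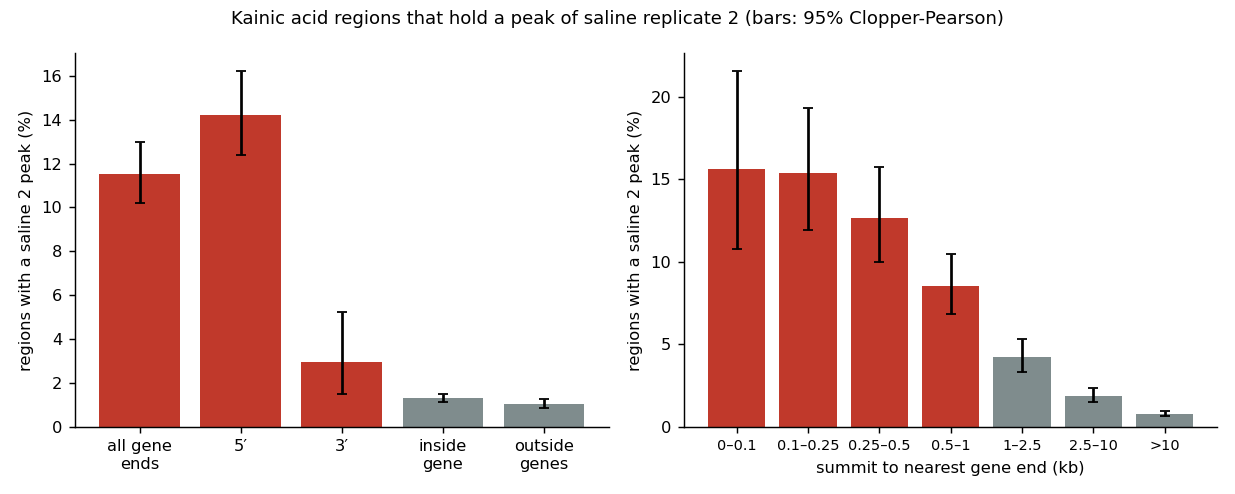
Share (%) of kainic acid regions that hold a peak of saline replicate 2, by place (left; all gene ends, 5′ ends, 3′ ends only, inside genes, outside genes) and by distance in kb from the summit to the nearest gene end (right); red bars are gene-end regions, grey bars the rest, and error bars are 95% Clopper-Pearson intervals. The share falls from 15.6% within 100 bp to 0.793% beyond 10 kb.

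Members with a saline replicate 2 peak had somewhat higher median folds in each kainic acid list. They were 4.39, 6.72 and 4.17 with it and 4.15, 5.82 and 3.92 without, and 38.75% and 38.3% of them were in all 3 lists. This was not particular to gene ends. The other regions had medians of 5.20, 8.33 and 5.55 with a saline replicate 2 peak and 4.49, 5.87 and 4.17 with no saline peak. Of these, 53.9% and 44.9% were in all 3 lists. The members with and without a saline replicate 2 peak also differed in position. At 5′ ends, 78 of 189 members with a saline peak (41.3%) had the summit within 250 bp of the end, against 260 of 1140 without (22.8%), and the median distances were 308 and 497.5 bp. Summits lay upstream in 31.7% and 46.1%.

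Seen from the saline list, most gene-end peaks had no partner after kainic acid. Of the 1926 gene-end peaks of saline replicate 2, 260 (13.5%) lay in a kainic acid region, against 294 of its 1332 other peaks (22.1%). A peak of any kainic acid list was met by 31.3% and 35.7%. The 1323 gene-end peaks at no kainic acid peak had a median fold of 4.03, a median background of 4.24 reads and a median width of 259 bp.

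The strongest gene-end regions are given by gene. They were ranked by the mean percentile rank of fold over the 3 lists, where 0 is the highest fold among all kainic acid regions of a list. The first was at Wdr95 (chr5:149611870-149613231), with folds of 12.2, 27.3 and 14.1. Next came Bcdin3d, an RNA methyltransferase gene (chr15:99468847-99469790, 856 bp past its 3′ end), with 13.2, 20.2 and 11.9. Sertad1, whose product binds CDK4, followed (chr7:27486867-27487851, 336 bp inside its 5′ end) with 9.83, 24.1 and 14.3. In each of these 3 regions replicate 2 gave the highest fold, but by rank within a list Bcdin3d stood highest in replicate 1. Its percentile ranks were 0.499, 0.744 and 0.904 in replicates 1, 2 and 3. Sertad1 alone of the 3 had a saline peak, with a fold of 5.94 in saline replicate 2.

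Of the first 15, 4 lay at genes of cell signalling, a grouping made after the ranking. The region at Trib1, a pseudokinase that works with a ubiquitin ligase (chr15:59648231-59649095), had folds of 8.43, 24.7 and 13.1. Rapgef3, an exchange factor activated by cyclic AMP, had a region 356 bp inside its 5′ end (chr15:97767600-97768586) with folds of 10.5, 19.7 and 9.01. Smad1, which carries bone morphogenetic protein signals, had a region 406 bp before its 3′ end with 9.31, 16.7 and 10.1. The kinase-like gene Stk40 had one 674 bp upstream of its 5′ end with 8.48, 20.1 and 9.43. All 4 regions were called in every kainic acid list.

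The others among the 15 follow by gene. Ercc1, part of the nuclease of nucleotide excision repair, had a region 517 bp inside its 5′ end (chr7:19343779-19345191) with folds of 10.2, 14.5 and 13.5. Cirbp, a cold-inducible RNA-binding protein, had one 27 bp inside its 5′ end (chr10:80165710-80166328) with 8.71, 16.9 and 10.2. The zinc transporter gene Slc39a6 had folds of 10.6, 16.1 and 9.89, and the ubiquitin ligase gene Herc3, at its 3′ end, had 10.9, 16.7 and 8.90. Sfxn3 (mitochondrial serine transport), Spef1l, Sh3bgrl3 with its neighbour Ubxn11, and Zkscan1 (a zinc finger gene) completed them, with folds in replicate 2 of 16.5, 15.7, 18.4 and 15.3. Of the 15, 6 were at 3′ ends, 6 at 5′ ends and 3 at genes of unknown strand. None was on the list of immediate early genes.

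**Figure D5:**
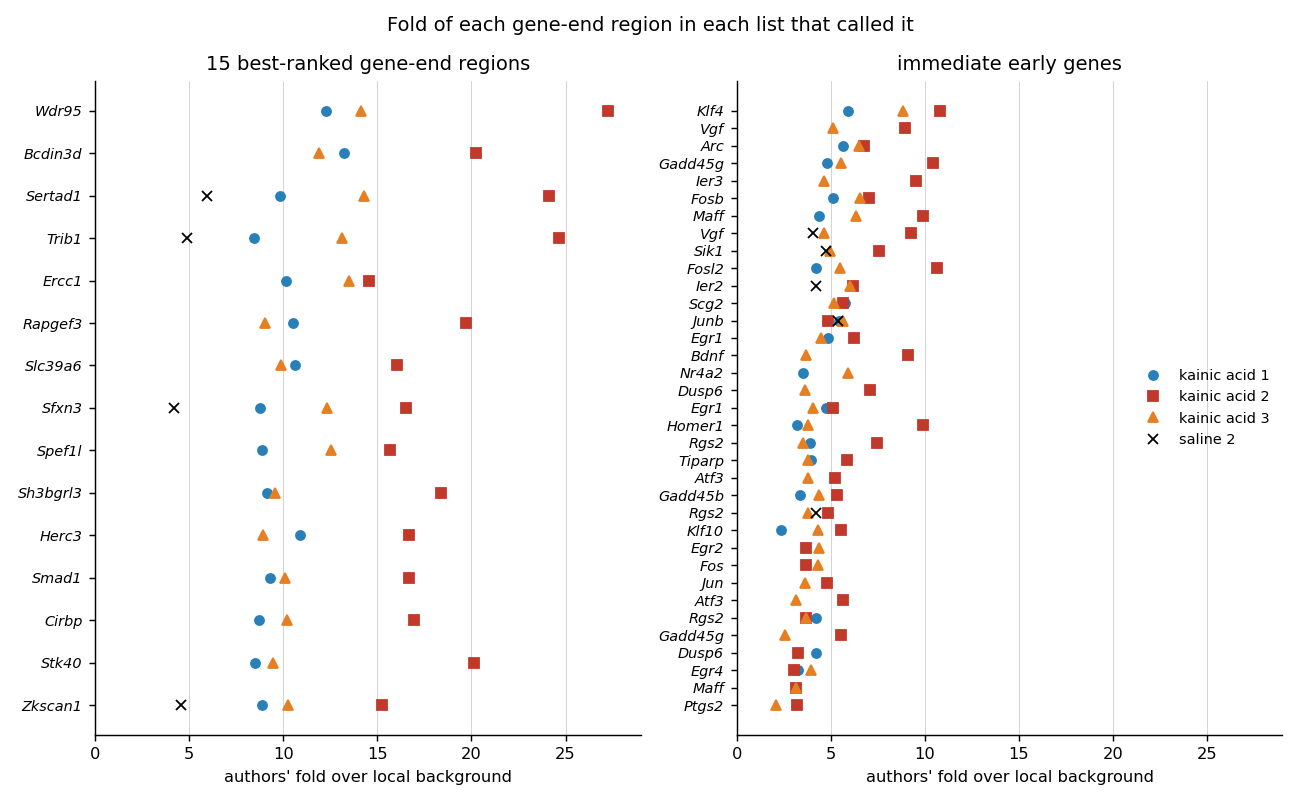
Authors' fold over local background for the 15 best-ranked gene-end regions (left) and for each gene-end region at an immediate early gene (right, genes repeated where they have several regions), with 1 marker per kainic acid library and a cross for saline replicate 2; a missing marker means no peak was called. The best-ranked regions reach 27.3 in kainic acid replicate 2, and the immediate early genes reach 10.8, at Klf4.

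Among the gene-end regions with a saline replicate 2 peak, 4 of the best-ranked 8 were also among the 15 above: Sertad1, Trib1 (saline fold 4.88), Sfxn3 (4.19) and Zkscan1 (4.54). Nt5dc3 had kainic acid folds of 7.82, 18.7 and 11.1 and a saline fold of 6.25. Srsf2, a splicing factor gene, had a region 61 bp upstream of its 5′ end with kainic acid folds of 6.88, 18.5 and 10.5 and a saline fold of 4.71. Ddi2, which encodes an aspartic protease, was not called in replicate 1 and had 16.8 and 6.90 in replicates 2 and 3 and 4.08 in saline. Trim9 was the eighth. These 8 were picked for high kainic acid folds, and fold is scaled within a library, so saline and kainic acid folds are not compared.

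Immediate early genes are those that cells switch on without new protein synthesis, and peaks do not show which listed genes meet this definition. Of the 40 genes on the list, 27 had a gene-end region (67.5%), where 10.4% of all protein-coding genes had one. Of the 27 genes, 15 had a region in all 3 lists and 5 had a saline replicate 2 peak in a region. Over all 2149 genes with a gene-end region, these counts were 830 and 264. Their 35 regions were of ordinary strength, with a median mean percentile rank of 53.5, against 58.1 over all members. Leaving out kainic acid replicate 2 gave 15 genes, and leaving out replicate 3 gave 16. All gene-end regions together fell from 2080 to 797 and 869 in these settings, so the share of 10.4% does not apply to them.

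The transcription factors among them included both strong and weak regions. Klf4, a zinc finger factor, had the best-ranked region of the list (chr4:55532701-55533757, 419 bp upstream of its 5′ end), with folds of 5.92, 10.8 and 8.82. Egr1 had 2 regions on chromosome 18, with folds of 4.87, 6.21 and 4.48 in the first and 4.73, 5.09 and 4.07 in the second. Nr4a2, an orphan nuclear receptor, had a region 3 bp before its 3′ end with 3.52 in replicate 1 and 5.93 in replicate 3 and no peak in replicate 2. Egr2, Egr4 and Klf10 had folds of at most 5.55 in any list. Egr3, Nr4a1, Nr4a3, Npas4, Crem and Bhlhe40 had no gene-end region.

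Genes of synaptic plasticity and secreted factors were also covered. Arc, which acts at the postsynaptic density in receptor removal, had a region at chr15:74672568-74674382 with folds of 5.66, 6.75 and 6.50. Bdnf, a neurotrophin, had a region 229 bp upstream of a 5′ end (chr2:109673638-109675138) with 9.09 and 3.65 in replicates 2 and 3. Homer1, a postsynaptic scaffold, had 3.20, 9.88 and 3.81 upstream of its 5′ end (chr13:93302587-93303893). Vgf, a neuropeptide precursor, had a region at each end, with folds of 8.93 and 5.11 at one and 9.28 and 4.62 at the other in replicates 2 and 3, and the second had a saline replicate 2 peak of 4.04. Scg2, a secretogranin, had 5.74, 5.65 and 5.17. Replicate 2, where folds also ran higher away from gene ends, was the highest at each of these genes but Scg2.

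Other genes of the list act in feedback on signalling or in stress responses, and its Fos, Jun, Maf and Atf members follow below with AP-1. Rgs2, which limits G protein signalling, had 3 regions, and 1 of them had a saline peak with a fold of 4.20. Dusp6, a phosphatase of ERK, had a region at each end, with folds of 7.08 and 3.60 in replicates 2 and 3 at its 5′ end and 4.18 and 3.24 in replicates 1 and 2 at its 3′ end. Gadd45g also had a region at each end, and the one past its 3′ end was the stronger, with 4.77, 10.4 and 5.53. Sik1, Ier2, Ier3, Tiparp and Gadd45b each had 1 region, and those of Sik1 and Ier2 had saline folds of 4.76 and 4.23. The lowest-ranked region of the list was at Ptgs2, the cyclooxygenase 2 gene, with 3.19 and 2.10 in replicates 2 and 3. Nptx2, Btg2, Ier5, Dusp1, Dusp5, Per1 and Inhba had none.

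The genes of AP-1 itself, whose products pair with or replace Fos, had gene-end regions in 10 of 20 cases (50%). The share over all protein-coding genes was 10.4%, and 7 of these 10 genes are also on the list above. At Fos the region lay 808.5 bp before the 3′ end (chr12:85476271-85476821), was not called in replicate 1 and had folds of 3.67 and 4.31 in replicates 2 and 3. Fosb, a close relative of Fos, had its region 113.5 bp before the 3′ end (chr7:19302432-19303900) with 5.11, 7.02 and 6.55. Fosl2 had one 560 bp upstream of its 5′ end (chr5:32135631-32136299) with 4.21, 10.6 and 5.51, and Fosl1 had 7.20 and 4.20 in replicates 2 and 3 with a saline fold of 3.12.

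Among the partners, the Junb region lay 313 bp before the 3′ end (chr8:84976837-84978195) with 5.42, 4.85 and 5.62. Its saline replicate 2 fold was 5.37, which is scaled within its own library and is not compared with these values. Jun had 4.79 and 3.65 in replicates 2 and 3 at 808.5 bp upstream of its 5′ end. The small Maf genes Maff and Mafk had regions near their 5′ ends, with 4.39, 9.91 and 6.31 in the stronger of the 2 at Maff, and 5.87 and 4.24 in replicates 2 and 3 at Mafk, where saline replicate 2 had 5.42. Atf3 had 2 regions and Atf4 had 1, with folds of 4.17 and 4.24 in replicates 1 and 2. Jund, Atf2, Atf7, Batf, Batf2, Batf3 and Jdp2 were among the genes with no region. Fosb, Maff, Fosl2 and Junb were called in all 3 kainic acid lists, and the count of 10 genes was 4 without replicate 2 and 5 without replicate 3. All gene-end regions together fell from 2080 to 797 and 869.

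Factors that act before Fos in the response to activity had 3 of 18 genes with a region: Mef2d, with folds of 4.70, 11.9 and 6.30 and a saline fold of 4.96, Crtc3, a coactivator of CREB, and Atf1. Neuronal genes had 7 of 25. The first of them were Gria1 (an AMPA receptor subunit; 5.45, 8.79 and 3.92), Snap25 (a SNARE protein; 4.44, 5.68 and 4.97) and Camk2a (a synaptic kinase; 6.69 and 3.65 in replicates 2 and 3). Gria1 and Camk2a had saline replicate 2 peaks of 4.87 and 4.19. Of markers of other brain cells, 1 of 10 astrocyte genes had a region, Sox9 (5.13, 10.9 and 3.85), and 0 of 9 oligodendrocyte, 0 of 10 microglia and 0 of 10 endothelial genes did. With 10.4% of all protein-coding genes having one, lists this short do not tell these cell types apart. Leaving out either of kainic acid replicates 2 and 3 lowered the neuronal count to 3, and the upstream factors fell to 1 when replicate 2 was left out. The gene-end regions of all genes fell from 2080 to 797 without replicate 2 and to 869 without replicate 3. Peaks measure no expression, and these counts do not name the cells that carried them.

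Genes with tasks in every cell were also met. Proteasome subunits had 14 of 31 genes with a region (45.2%), of which 8 were in all 3 lists and none had a saline peak. Over all 2149 genes with a region, 830 were in all 3 lists and 264 had a saline replicate 2 peak. With 14 genes, a count of 0 is close to that saline share. The best-ranked were Psmd14 (10.5 and 7.27 in replicates 2 and 3), Psmd11 (4.03, 12.9 and 9.39) and Psmd4 (4.13, 8.38 and 7.34), all between 235 and 290 bp inside their 5′ ends. Cytosolic ribosomal proteins had 17 of 58 (29.3%), with 4 in all 3 lists, led by Rps19 (11.3 and 5.35 in replicates 2 and 3). Chaperones had 4 of 21, of which Hsp90ab1 (2.75, 12.9 and 6.39) ranked first, and chromatin regulators had 6 of 27 (22.2%), led by the histone demethylase gene Kdm5b (4.48, 11.7 and 6.17). Read against the 10.4% of all protein-coding genes, the shares of proteasome and ribosomal genes were 45.2% and 29.3%, and that of the factors upstream of Fos was 16.7%. Without kainic acid replicate 2 or without replicate 3, the proteasome count was 8 and 8, the ribosomal count 4 and 5, the chaperone count 1 and 1 and the chromatin count 1 and 2. In the same settings all gene-end regions fell from 2080 to 797 and 869, and the 10.4% does not apply there.

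Some genes had regions at more than 1 place. A total of 143 genes had 2 gene-end regions and 6 had 3 or more, and 81 had one at each end. Akap11, an anchor of protein kinase A, had folds of 8.80, 18.6 and 8.37 past its 3′ end and 6.42, 9.41 and 5.66 inside its 5′ end, with a span of 44.7 kb between the ends. Gtdc1 had 7.44, 23.7 and 6.33 at its 5′ end and 4.22, 7.36 and 4.18 at its 3′ end. Tmem43, Lgals7, Hspb7 and Map2k6 were the other genes named, chosen by the better-ranked region of each pair. At Tmem43 the mean percentile ranks were 65.5 at the 5′ end and 3.05 at the 3′ end, where an end of Xpc lay nearer. At Map2k6, a kinase of the p38 pathway, the 3′ region had 6.16, 10.8 and 8.54 and the 5′ region only 5.29 and 2.65 in replicates 2 and 3.

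The limit of 1 kb was a line through a continuous spread. Just inside it were regions at Elavl4 (999.5 bp; folds of 5.82 and 4.52 in replicates 2 and 3) and Snx29 (1000 bp; 4.22, 9.18 and 3.45). Just outside were Fndc4 (1001 bp; 8.41 and 4.73 in replicates 2 and 3) and Focad (1001.5 bp; 4.96, 5.87 and 5.44). The lowest-ranked members in all 3 lists were at Ammecr1l, Akt2, B3galt2, Babam2 and Casc3, with folds between 2.34 and 4.19 in every list.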

How the data were processed

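Per the submitters' processing notes, reads were handled with Trim Galore 0.6.4, Bowtie2 2.3.4.3, MACS2 and deepTools 3.5.0 on the build mm10; the MACS2 version, cutoff, control and the role of each tool are not given in the sources used here. Per the file contents, peak names carry marks of trimming, mapping quality filtering, sorting and merging, and the authors called 1 list per library with no pooling. The deposited peak lists hold positions, a linear fold (ratio) over local background, −log10 p, −log10 q and a score that is 10 times −log10 q rounded down, each scaled within its library.

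Peaks of the kainic acid lists were merged at 1 bp of overlap with Python 3.11.15 (pandas 2.3.3, numpy 2.4.6, scipy 1.17.1). Per region and list the strongest peak gave fold and width. Pileup and background were solved from fold, with a pseudocount of 1, and the Poisson p, which succeeded for 111142 of 111142 peaks within 0.001, and on simulated data for 100% of 19234 pileups. Gene spans and promoter windows came from RefSeq tables of GRCm38.p6; strand was known for 16456 of 20661 genes, taken from the promoter table. Motifs were searched on both strands. Groups were compared with exact permutation tests over libraries.

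The members and gene lists were chosen with earlier results of these data known. Genes were named by a rule: the 15 best-ranked members, the 8 best-ranked with a saline replicate 2 peak, all members at immediate early and AP-1 genes, up to 3 per other list, 6 genes with several regions, those at the limit of 1 kb and the 5 weakest. Printed promoters departed from the rule, which chose windows that mostly did not hold the summit: they were chosen after the values were seen, as windows that do. Depth per library is unknown. Alternatives for the q threshold, reach, number of lists, gene set, list length, summit, overlap and left-out libraries were run. The input was not analysed here.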

Additional observations from a re-analysis of the deposited data

Results flagged for a closer look

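Chromosome X lay outside the regions described above, and Fos peaks were found at gene ends there too. It held 210 kainic acid regions with peaks in at least 2 lists, of which 26 had their summit no more than 1 kb from a gene end. On the same chromosome saline replicate 2 had 1 gene-end peak and saline replicates 1 and 3 had 0.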

How the results depend on the processing

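The direction of the fold difference held under every peak filter, reach, gene set and left-out library tried (leaving out a list, −0.10 to −0.01 on the log2 scale). With −log10 q in place of fold the sign was opposite, at 1.00. Fold is a ratio of reads to background, while −log10 q also grows with the number of reads at a given ratio. The cause of the opposite sign was not tested. The pileup and background differences kept their sign under all alternatives run on them. The width difference of 1.0 bp turned to −21.3 bp and −40.3 bp at a −log10 q of at least 5 and 10, −7.33 bp at a reach of 500 bp, −30.5 bp with lists of equal length and −0.5 bp for the covered length, and ranged from −25.5 to 23 bp when 1 list was left out; the cause was not tested. The number of peaks per list differed by 1.74 to 3.38 (log10) with 1 library left out. Replicate numbers are shared by the groups but the labels do not tie them to animals, and saline replicates 1 and 3 hold no gene-end peak, so pairing could not be checked by correlation; the replicate block left it at 2.28, with an exact sign-flip permutation p of 0.25. As a share of peaks in place of a number it turned to −21.4 percentage points, over 2 saline lists only. Of these, saline replicate 1 had 4 peaks with 0 at gene ends and weighed as much as saline replicate 2. No conclusion is drawn from that value.

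The number of gene-end regions was 684 at a −log10 q of at least 10, 798 in all 3 lists, 1128 at 500 bp, 3756 at 2.5 kb, 3157 with all annotated genes, 1079 with lists of equal length and 797 to 2010 with 1 list left out. Their share of all regions was 8.20% and 8.54% at the q limits of 5 and 10, 6.73% in all 3 lists, 4.23% at 500 bp, 14.1% at 2.5 kb, 11.8% with all genes, 8.22% with equal lists and 6.47% to 8.08% with 1 list left out. The excess of saline coincidence, 10.3 percentage points, was 4.60 and 0.210 at the q limits, 12.6 at 500 bp, 7.28 at 2.5 kb, 7.23 with all genes, 12.1 with equal lists, 8.63 where the overlap had to reach 50% of the saline peak, 5.70 with summits within 200 bp and 8.56 to 10.5 with 1 kainic acid list left out. With 1 saline list left out it ranged from −0.0163, without saline replicate 2, to 10.3. The difference in the share called in all 3 lists was −12.6 points at a −log10 q of at least 10; it has no value where all 3 lists are required or 1 is left out.

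Alternatives chosen after seeing the data gave these values. AP-1 was in 51.9% of windows at a −log10 q of at least 10, 60.9% in all 3 lists, 52.0% with equal lists and 41.1% to 60.0% with 1 list left out. The 5′ share of regions with known strand, 78.2%, was 76.0% in all 3 lists and 76.0% to 78.4% with 1 list left out. The difference between gene-end and other saline replicate 2 peaks in kainic acid regions, −8.57 points, was −11.2 at a −log10 q of at least 5, −6.74 in all 3 lists, −4.35 for any kainic acid peak and −8.58 to −6.62 with 1 list left out. The mean gene-end share of the kainic acid lists was 4.50% at 500 bp, 14.4% at 2.5 kb, 12.1% with all genes and 6.96% to 9.04% with 1 list left out.

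Counts of genes by list moved as follows. Requiring all 3 lists gave 15 immediate early, 4 AP-1, 3 neuronal, 8 proteasome, 1 chaperone, 4 ribosomal and 1 chromatin gene. Over all protein-coding genes it left 830 of the 2149 genes with a region. A −log10 q of at least 5 gave 4 neuronal and 3 chromatin genes, and a reach of 2.5 kb gave 7 upstream factors, 12 neuronal, 3 astrocyte, 9 chaperone and 2 liver genes. With 1 list left out the ranges were 15 to 26 immediate early, 4 to 9 AP-1, 1 to 3 upstream, 3 to 7 neuronal, 8 to 14 proteasome, 1 to 4 chaperone, 4 to 16 ribosomal and 1 to 5 chromatin genes. The number of all gene-end regions ranged from 797 to 2010 in these settings. Over the 79 named genes, 324 of 474 region counts equalled the reported one, 125 were lower and 25 higher.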
